A study of Mus musculus with 19 samples.

Results

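Of the 21749 genes in the deposited table, 111 have symbols of oxidative phosphorylation genes: NADH dehydrogenase (Nduf), succinate dehydrogenase (Sdh), cytochrome bc1 (Uqcr), cytochrome c oxidase (Cox4 to Cox8), ATP synthase (Atp5) and the protein-coding genes of mitochondrial DNA (mt-). They were chosen by symbol, with earlier results of these data known, and 7 symbols that end in -ps were left out. The set holds 98 nuclear and 13 mitochondrially encoded genes. Its nuclear genes include 8 Ndufaf genes, which encode assembly factors of complex I and not subunits of it, and 3 extra gene copies, Ndufa11b, Ndufb4b and Ndufb4c.

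The study measured polyA RNA bound to tagged ribosomes in 19 libraries of mouse brain astrocytes. The title of the study calls them cortical, and the titles of the 10 libraries of batches 2 and 3 carry CTX, while those of the 9 libraries of batch 4, all males among them, name no region. All groups were B6;FVB mice that carry the transgene Tg(Aldh1l1-EGFP/Rpl10a)JD130Htz, in which regulatory sequence of the astrocyte gene Aldh1l1 drives an EGFP-tagged ribosomal protein L10a, and ribosomes were pulled down with magnetic beads. The groups are Males (4 libraries), and females taken at 09:00 in Metestrus (8), Proestrus (3) or Estrus (4), and no age is given. Of the batches in the labels, batch 2 has 3 Estrus libraries beside 2 from each other stage, batch 3 has 1 per stage, and batch 4 has the 4 male and 5 Metestrus libraries. Males shared a batch with Metestrus alone and were compared with it alone. The fold changes between stages rest on batches 2 and 3, which hold every stage, while the Metestrus ranges printed below cover all batches. Whether libraries came from separate animals is not in the labels, so p-values measure only the spread between libraries. There is no library of unpurified tissue, and in bulk samples fewer cells and less RNA per cell cannot be told apart.

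Oxidative phosphorylation passes electrons through complexes I to IV of the inner mitochondrial membrane. Complexes I, III and IV pump protons, complex II does not, and complex V, the ATP synthase, uses the resulting gradient to make ATP. Nearly all subunits are encoded in the nucleus and made on cytosolic ribosomes, which carry the tagged L10a. The 13 mitochondrial mRNAs encode hydrophobic core subunits and are translated on mitochondrial ribosomes, which do not contain L10a. Astrocytes are known for strong glycolysis beside respiration.

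The astrocyte marker mean ran from 13.5 to 14.4 on the deposited log2 scale over the 19 libraries. Neuronal markers were also well above the floor, with a mean of 12.1 to 12.5, and Snap25, a synaptic gene, was at 15.3 to 16.6. Endothelial and mural markers averaged 5.14 to 7.48. The part of these other cells in the results below was not tested. The deposited values carry no counts, so the depth behind each value is unknown. Whether they were divided by gene length is not stated, and levels are therefore compared between libraries and not between genes.

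Promoters are shown for 4 of the genes named below in the estrus results, and for 3 genes that encode one protein. They are the 250 bases before the start, 5' to 3', from RefSeq on build GRCm38.p6, which is not the build of the expression table. Ndufa1 encodes a small accessory subunit of complex I (chrX:37191239-37191488, minus strand), and Atp5f1b the catalytic beta subunit of ATP synthase (chr10:128083057-128083306, plus strand). Ndufv1 encodes the flavin subunit of complex I (chr19:4012756-4013005, minus), and Cox5b a subunit of complex IV (chr1:36691237-36691486, plus). Atp5mc1 (chr11:96075632-96075881, minus), Atp5mc2 (chr15:102671048-102671297, minus) and Atp5mc3 (chr2:73911327-73911576, minus) encode the same mature c subunit of the rotor ring with different import sequences. Capitals mark the searched motifs.
Ndufa1: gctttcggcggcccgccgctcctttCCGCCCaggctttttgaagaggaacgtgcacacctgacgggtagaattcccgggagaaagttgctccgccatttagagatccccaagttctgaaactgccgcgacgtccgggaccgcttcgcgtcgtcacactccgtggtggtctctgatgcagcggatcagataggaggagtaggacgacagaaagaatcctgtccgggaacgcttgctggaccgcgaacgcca
Atp5f1b: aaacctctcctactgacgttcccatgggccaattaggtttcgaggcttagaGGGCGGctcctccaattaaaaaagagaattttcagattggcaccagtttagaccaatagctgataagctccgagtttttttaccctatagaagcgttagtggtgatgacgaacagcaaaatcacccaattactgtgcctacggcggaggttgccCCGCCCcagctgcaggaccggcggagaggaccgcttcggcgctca
Ndufv1: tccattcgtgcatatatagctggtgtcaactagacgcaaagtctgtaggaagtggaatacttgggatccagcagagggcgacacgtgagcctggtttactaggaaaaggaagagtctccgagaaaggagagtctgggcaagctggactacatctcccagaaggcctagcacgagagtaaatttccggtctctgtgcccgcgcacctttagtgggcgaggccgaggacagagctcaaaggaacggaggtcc
Cox5b: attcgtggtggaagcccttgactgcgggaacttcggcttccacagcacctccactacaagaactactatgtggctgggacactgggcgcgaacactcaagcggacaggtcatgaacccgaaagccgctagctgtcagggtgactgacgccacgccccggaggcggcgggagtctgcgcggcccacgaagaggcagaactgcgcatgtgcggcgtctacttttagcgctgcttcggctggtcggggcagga
Atp5mc1: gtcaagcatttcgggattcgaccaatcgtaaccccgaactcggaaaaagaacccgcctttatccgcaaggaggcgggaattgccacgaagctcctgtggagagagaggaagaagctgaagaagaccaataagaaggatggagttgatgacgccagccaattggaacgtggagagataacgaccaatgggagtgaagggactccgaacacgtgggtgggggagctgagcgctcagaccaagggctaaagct
Atp5mc2: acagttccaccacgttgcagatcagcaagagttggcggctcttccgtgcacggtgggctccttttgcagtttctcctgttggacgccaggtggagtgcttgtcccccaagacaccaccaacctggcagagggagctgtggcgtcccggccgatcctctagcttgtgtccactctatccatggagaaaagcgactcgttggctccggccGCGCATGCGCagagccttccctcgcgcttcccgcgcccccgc
Atp5mc3: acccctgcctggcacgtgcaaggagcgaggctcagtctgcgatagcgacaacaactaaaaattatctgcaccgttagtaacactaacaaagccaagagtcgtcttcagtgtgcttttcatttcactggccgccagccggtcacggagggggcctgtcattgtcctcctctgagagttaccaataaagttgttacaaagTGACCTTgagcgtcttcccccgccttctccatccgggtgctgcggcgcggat

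The motifs were searched on both strands, and 78 of the 98 nuclear genes had a RefSeq promoter. The NRF1 letters GCGCANGCG stood in 16 of the 78 (20.5%), against 5.86% of all 27025 genes with a promoter, and the ETS letters CCGGAAG, which GABPA binds, in 14 (17.9%), against 7.83%. The estrogen-related receptor letters AAGGTCA stood in 6 (7.69%, against 4.7%), the Sp1 letters GGGCGG in 31 (39.7%, against 35.4%) and the YY1 letters AAGATGGC in 1 (1.28%, against 1.83%). GGTCANNNTGACC, the palindromic estrogen response element, stood in 0 of 78 and in 0.0666% of all genes. In the promoters printed above, the capitals are Sp1 letters in Ndufa1 and Atp5f1b, NRF1 letters in Atp5mc2, where matches on both strands overlap, and the estrogen-related receptor letters in Atp5mc3. None of the searched letters lies in the Ndufv1, Cox5b or Atp5mc1 windows.

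Oxidative phosphorylation genes were compared between groups with limma, a linear model with a batch term fitted over 20644 genes that reached a value of 10 before the log in at least 3 libraries. It included 97 of the 98 nuclear genes (Ndufa11b was too low) and all 13 mitochondrial genes. At an adjusted p under 0.05 (Benjamini-Hochberg over all genes), 0 nuclear and 0 mitochondrial genes passed in any of the 4 comparisons. Over all genes, 0.988% passed in Proestrus over Metestrus, 0.0872% in Estrus over Metestrus, 0.94% in Estrus over Proestrus and 0.0242% in Males over Metestrus. At an unadjusted p under 0.05, the nuclear genes gave 1, 13, 2 and 2 of 97 in that order, against 13.1%, 11.3%, 14.5% and 5.33% of all genes, and the mitochondrial genes gave 1, 0, 0 and 0 of 13. Among the 4648 genes with a mean of at least 10 on the log2 scale, which include 84 of the nuclear genes, 4.09%, 9.27%, 9.01% and 6.0% had an unadjusted p under 0.05 in that order, and 4 genes passed the adjusted test, all in Estrus over Proestrus.

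The nuclear genes varied less within a group than most genes. Their median SD within a group was 0.195 log2 units, against 0.443 for all genes tested, and among genes with a mean of at least 10 it was 0.184 (84 nuclear genes), against 0.252 (4648 genes). The 95% interval of the fold change lay within 1 log2 unit of 0 for 90 of 97 nuclear genes in Proestrus over Metestrus, 92 in Estrus over Metestrus, 91 in Estrus over Proestrus and 91 in Males over Metestrus. As shares these are 92.8%, 94.8%, 93.8% and 93.8%, against 43.4%, 46.5%, 45% and 54.7% of all genes and 94.6%, 95.5%, 95.4% and 98.9% of the genes with a mean of at least 10. The median half-width of the nuclear intervals was 0.34, 0.32, 0.32 and 0.28 log2 units in that order. For the mitochondrial genes the counts were 4, 5, 6 and 6 of 13.

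**Figure D1:**
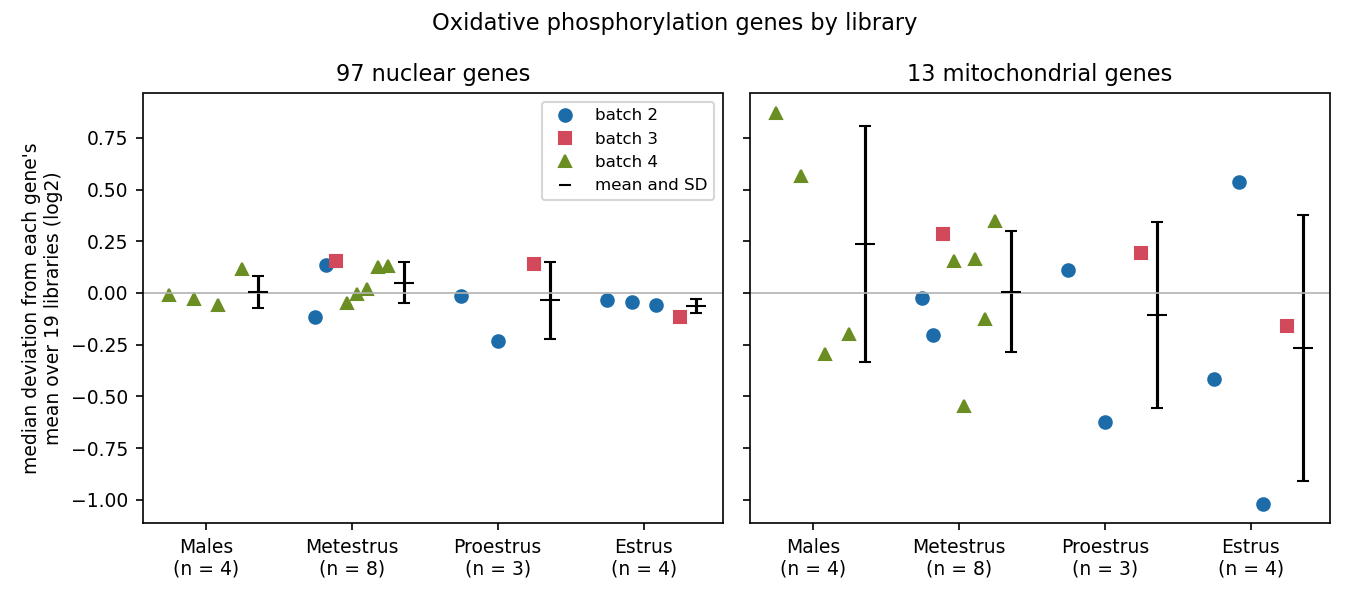
Median deviation of the nuclear (left, 97 genes) and mitochondrial (right, 13 genes) genes from each gene's mean over 19 libraries, in log2 units, with 1 point per library, batch as symbol, and the group mean and SD. Nuclear medians stay between -0.23 and 0.16, and mitochondrial medians run from -1.02 in Estrus 3 to 0.87 in Males 1.

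The median fold change of the 97 nuclear genes in Estrus over Metestrus was -0.14, with 63 of 97 negative. It was -0.07 over all genes tested and -0.02 over the 4648 genes with a mean of at least 10. Most nuclear core subunits of complex I carry the flavin or iron-sulphur clusters or form the quinone site. Across Estrus over Metestrus, all 7 nuclear core genes had a positive fold change (median 0.32 on the log2 scale), while 27 of 30 accessory genes had a negative one (median -0.20), against a median of -0.07 over all genes tested. None of them passed the test. Ndufv1, the flavin subunit, was at 12.78, 13.32, 13.13 and 12.38 in Estrus libraries, and at 11.91 to 13.21 (median 12.37) in Metestrus libraries. Over all batches these values overlapped, with the batch 3 library Estrus 4 the lowest of its group, and both ends of the Metestrus range are batch 4 libraries. Metestrus libraries were at 12.45 and 12.58 in batch 2 and at 12.17 in batch 3, under the Estrus libraries of the same batch. The fold change was 0.46 ± 0.24 (SE, limma adjusted p = 0.469). Ndufs1, the largest iron-sulphur subunit, gave 0.40 (adjusted p = 0.552) and Ndufs3 0.32 (adjusted p = 0.471). Ndufs7, Ndufs8 and Ndufv2, which also bind clusters, were between 0.02 and 0.06.

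Among the accessory genes, Ndufa1 was at 11.99, 11.76, 11.84 and 12.11 in Estrus libraries, and at 12.09 to 12.60 (median 12.39) in Metestrus libraries. It gave -0.41 ± 0.15 (SE, limma adjusted p = 0.301), the smallest p of the nuclear genes in this comparison. Ndufs6, needed for a late step of assembly, was at 12.59, 12.50, 12.48 and 12.72 in Estrus libraries, and at 12.79 to 12.97 in Metestrus libraries. It was the 1 nuclear gene of 97 whose library ranges did not overlap, against 3.33% of all genes tested, with a fold change of -0.32 ± 0.12 (SE, limma adjusted p = 0.344). Ndufa2 gave -0.34 (adjusted p = 0.394). Ndufa9, an accessory subunit near the quinone site, had the opposite sign (0.43, adjusted p = 0.451), as did Ndufa10 (0.34, adjusted p = 0.438).

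Of the assembly factors, Ndufaf1 (0.43, adjusted p = 0.417) and Ndufaf7 (0.37, adjusted p = 0.419) were higher in Estrus libraries without passing the test, and Ndufaf8 gave -0.34 (adjusted p = 0.439). Ndufb4c, a copy of Ndufb4 with which it may share reads, gave -1.45 in Estrus over Metestrus (adjusted p = 0.405) and -1.74 in Estrus over Proestrus (adjusted p = 0.2). Its values were 6.99, 7.92, 7.70 and 3.33 in Estrus libraries, 8.63, 8.71 and 6.93 in Proestrus libraries, and 6.84 to 8.77 in Metestrus libraries. Without Estrus 4, where it was at 3.33, the fold changes were -0.32 over Metestrus and -0.61 over Proestrus, and without Metestrus 3, of the same batch, the first was -0.08.

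By library, the median deviation of the core genes minus that of the accessory genes was 0.27, 0.56 and 0.46 in the batch 2 Estrus libraries, 0.16 and 0.04 in the batch 2 Proestrus libraries, and 0.03 and -0.16 in the batch 2 Metestrus libraries. In batch 3 it was -0.08 in the Estrus library, -0.12 in the Proestrus library and -0.37 in the Metestrus library. The Estrus library was thus above the Metestrus libraries within each shared batch, while over all batches the groups overlapped, with Metestrus libraries at up to 0.28. The core median was 0.08 (6 of 7 positive) in Proestrus over Metestrus, 0.20 (6 of 7) in Estrus over Proestrus and 0.01 (4 of 7) in Males over Metestrus. Accessory medians were -0.12 (4 of 30 positive), -0.08 (11 of 30) and -0.03 (10 of 30) in the same order.

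Some marker lists of other cells also differed in Estrus over Metestrus, without any marker passing the test. The 10 endothelial and mural markers had a median of -0.72 (3 of 10 positive), with marker means of 5.14 to 6.40 in Estrus libraries and 5.70 to 6.82 in Metestrus libraries. In batch 3 this mean was higher in the Estrus library (6.40) than in the Metestrus library (6.21). Of the 10 oligodendrocyte lineage markers 9 were positive (median 0.27), of the 14 neuronal markers 10 (median 0.12), and of the 16 astrocyte markers 5 (median -0.15). Of the 9 microglia markers 4 were positive (median -0.02), and of the 7 choroid plexus and ependymal markers 4 (median 0.00). Their part in the values of the nuclear genes was not tested.

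Complex II, succinate dehydrogenase, is encoded wholly in the nucleus and is shared with the citric acid cycle. All 4 genes had a positive fold change in Estrus over Metestrus, from 0.09 for Sdhd to 0.32 for Sdha (adjusted p = 0.576, the smallest of the 4 genes), with a median of 0.14. Sdha, the flavin subunit, was at 13.03, 13.06, 13.49 and 12.56 in Estrus libraries, and at 12.02 to 13.15 (median 12.71) in Metestrus libraries. The ranges overlapped. In batch 2 the Metestrus libraries were at 12.77 and 12.64, under the Estrus libraries, and in batch 3 at 12.65, above the Estrus library. Sdhb gave 0.15 and Sdhc, a membrane anchor, 0.12. The median deviation of the 4 genes was 0.06, 0.29 and 0.25 in the batch 2 Estrus libraries. It was -0.06 and -0.04 in the batch 2 Metestrus libraries. In batch 3 the order was reversed, with -0.24 in the Estrus library and -0.06 in the Metestrus library. Each of the 4 genes was lower in that Estrus library, so the positive fold changes come from batch 2.

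In complex III, the large core proteins Uqcrc1 (0.42, adjusted p = 0.557) and Uqcrc2 (0.36, adjusted p = 0.474) and the Rieske iron-sulphur protein Uqcrfs1 (0.19, adjusted p = 0.705) had positive fold changes in Estrus over Metestrus, and the other 5 genes negative ones. These signs go with transcript length, described below. The 3 positive genes are among the longest nuclear genes and the 5 negative ones among the shortest. The parts of role and length were not tested. Uqcrh, the hinge protein, was at 13.66, 13.44, 13.53 and 13.85 in Estrus libraries, 13.65, 13.44 and 13.89 in Proestrus libraries, and at 13.72 to 14.14 in Metestrus libraries. Its fold changes were -0.29 ± 0.13 for Estrus over Metestrus (SE, limma adjusted p = 0.408) and -0.28 ± 0.14 for Proestrus over Metestrus (adjusted p = 0.409). Both comparisons share the Metestrus libraries.

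In complex IV, cytochrome c oxidase, 17 of 19 nuclear genes had a negative fold change in Estrus over Metestrus (median -0.19), and 15 of 19 in Proestrus over Metestrus (median -0.14, against -0.09 over all genes). Those with a known transcript length are all among the shortest nuclear genes or those of middle length, described below. Cox5b gave -0.29 (adjusted p = 0.432), Cox8a -0.27 (adjusted p = 0.444), Cox6c -0.22 (adjusted p = 0.66), Cox5a 0.08 (adjusted p = 0.885) and Cox4i1, the regulatory subunit that binds ATP, -0.02. Among isoform pairs, both members had the same sign for Cox6a1 (-0.18) and Cox6a2 (-0.04), for Cox6b1 (-0.14) and Cox6b2 (-0.36), for Cox7a2 (-0.15) and Cox7a1 (-0.21), and for Cox8a and Cox8b (-0.51). Cox7a2l, which joins complexes III and IV, gave -0.04, and the paralogs Ndufa4 and Ndufa4l2 gave -0.11 and 0.25. Cox8c was not analysed here.

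Among ATP synthase genes, none of which passed the test, 4 of 5 of the F1 head had a positive fold change in Estrus over Metestrus (median 0.19), and all 5 of the membrane part a negative one (median -0.18). The difference between the parts was not tested, and it goes with transcript length, described below: 4 of the 5 membrane genes are among the shortest nuclear genes and 3 of the 5 F1 genes among the longest, and the negative F1 gene, Atp5f1e (-0.28), is among the shortest. Atp5f1b was at 15.05, 15.33, 15.18 and 14.53 in Estrus libraries, and at 13.97 to 15.22 (median 14.55) in Metestrus libraries. In batch 2 the Metestrus libraries were at 14.79 and 14.54, and in batch 3 at 14.22, under the Estrus libraries of the same batch. Atp5f1b gave 0.47 ± 0.22 (SE, limma adjusted p = 0.433). Atp5f1c, the rotor shaft, gave 0.19 (adjusted p = 0.721). The c ring genes Atp5mc1, Atp5mc2 and Atp5mc3, whose promoters are printed above, gave 0.01, 0.10 and 0.00, with 95% intervals of -0.31 to 0.33, -0.30 to 0.50 and -0.27 to 0.27. Atp5if1, the inhibitor of ATP hydrolysis, gave 0.08.

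**Figure D2:**
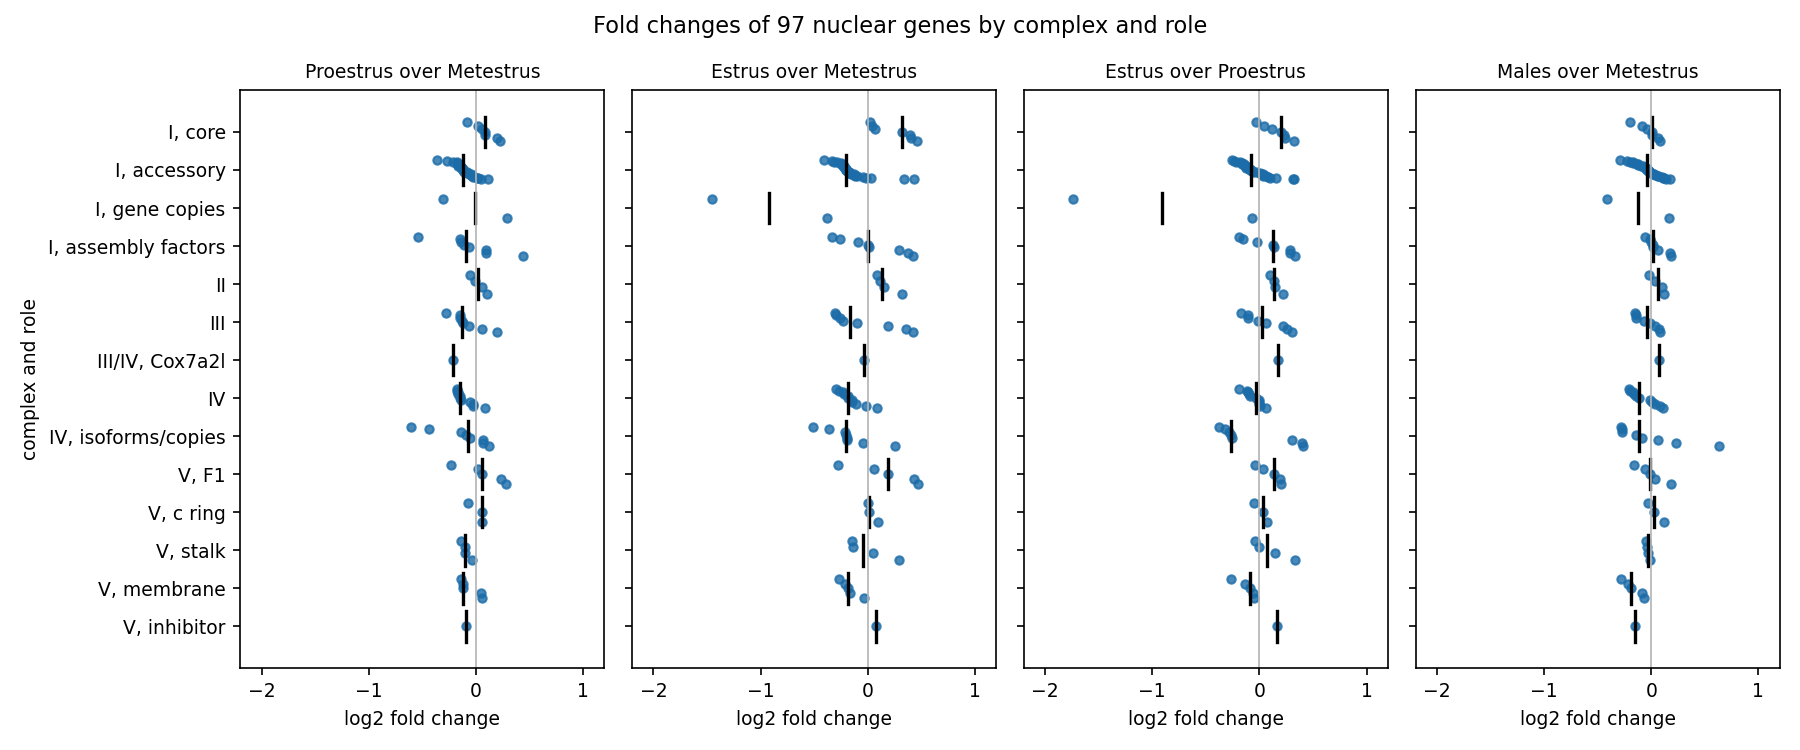
Fold changes (log2) of the 97 nuclear genes in 4 comparisons, by complex and role, with 1 point per gene and a bar at the median. In Estrus over Metestrus the complex I core genes lie right of 0 and most accessory genes left of it, and no gene passes an adjusted p of 0.05.

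In Males over Metestrus the median fold change of the nuclear genes was -0.02, against 0.04 over all genes tested. Cox4i2, the isoform of Cox4 known from lung, was at 10.06, 9.22, 8.89 and 9.05 in male libraries, and at 8.12 to 8.99 (median 8.73) in Metestrus libraries. It gave 0.63 ± 0.24 (SE, limma adjusted p = 0.856), the smallest p of the nuclear genes in this comparison. Cox4i2 is also expressed by pericytes, and the mean of the endothelial and mural markers was 6.28, 7.48, 5.98 and 6.36 in the male libraries, against 5.70 to 6.82 in Metestrus libraries. Their part in the Cox4i2 value was not tested. Ndufb4, an accessory subunit of complex I, was at 12.28, 12.29, 12.17 and 12.64 in male libraries, and at 12.41 to 12.93 in Metestrus libraries (-0.29 ± 0.13, SE, limma adjusted p = 0.909), and Ndufc2 gave -0.20 (adjusted p = 0.974). All 5 membrane genes of ATP synthase were negative there (median -0.19).

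In Proestrus over Metestrus, Ndufa6 was at 13.04, 12.88 and 13.43 in Proestrus libraries, and at 13.21 to 13.63 in Metestrus libraries. It gave -0.36 ± 0.15 (SE, limma adjusted p = 0.318), the smallest p of the nuclear genes there. The nuclear median was -0.08, against -0.09 over all genes tested. Of the assembly factors, Ndufaf6 was at 9.07, 8.80 and 8.91 in Proestrus libraries, and at 8.19 to 8.82 in Metestrus libraries (0.44 ± 0.25, adjusted p = 0.464), and Ndufaf4 gave -0.54 (adjusted p = 0.498). Cox7b2, a testis isoform that was low here at 4.18 to 6.49, gave -0.60 (adjusted p = 0.663).

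For Estrus over Proestrus, the nuclear median was -0.01, against 0.02 over all genes tested. Atp5pb, a stalk subunit of ATP synthase, was at 14.21, 14.39, 14.27 and 13.78 in Estrus libraries, and at 13.88, 13.74 and 13.83 in Proestrus libraries. All batch 2 Estrus libraries were above the Proestrus libraries and Estrus 4 was among them, and the fold change was 0.33 ± 0.15 (SE, limma adjusted p = 0.294). Ndufa10 gave 0.32 (adjusted p = 0.368), and of the low isoforms Cox7b2 gave 0.41 (adjusted p = 0.746) and Cox6a2, known from heart and muscle, 0.40 (adjusted p = 0.589).

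The fold changes of the nuclear genes were related to transcript length, a feature that the choice of genes did not use. The relation was looked for after the fold changes had been seen. Length was the median over a gene's protein-coding transcripts in the basic set of GENCODE M21, and 93 of the 97 genes had one. In Estrus over Metestrus the 31 shortest genes (up to 595 bases) had a median of -0.21, with 29 of 31 negative, and the 31 longest (from 1046 bases) a median of 0.19, with 25 of 31 positive. Among all genes with a mean of at least 10, those as short (113 genes, 27 of them members of the set) had a median of -0.20 and those as long (3909 genes) 0.01. The 552 genes of a length between had a median of -0.13, with 412 of 552 negative. Without the members, the 86 other short genes had a median of -0.19, with 77 of 86 negative, and the 3878 long ones 0.01. Across the 93 genes, which share libraries and role, Spearman's rho between length and fold change was 0.66. It was 0.04 across the 4574 abundant genes and 0.02 without the members (4488 genes). These rhos cover unlike lengths, since the abundant genes reach 21177.5 bases (median 2350) and the members 3632 (median 742). In the other comparisons rho over the 93 genes was 0.46 (Proestrus over Metestrus), 0.57 (Estrus over Proestrus) and 0.41 (Males over Metestrus). Across the abundant genes it was 0.16, -0.10 and -0.00 in the same order.

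The length measure was itself changed once. All protein-coding transcripts were used at first, and the basic set, which leaves out partial transcript models, replaced them after the relation had been seen, because partial models put Uqcrc1 at 533 bases, against 1653 in the basic set. With the first measure rho in Estrus over Metestrus was 0.61, the medians of the shortest and longest genes were -0.21 and 0.19, and 23 of the 31 longest were positive. Abundant genes as short as the shortest group then had a median of -0.13. Role and length go together: 0 of the 7 core genes are among the 31 shortest and 5 are among the 31 longest, and all 4 complex II genes are among the longest. Within the accessory genes of complex I, 0 of the 10 among the shortest, 0 of the 12 of middle length and 3 of the 7 among the longest had a positive fold change. Of the core genes, 2 of 2 of middle length and 5 of 5 among the longest had a positive fold change. Among the longest, the median was 0.40 for the core genes and -0.10 for the accessory genes. The parts of role and length in the core values were not tested.

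**Figure D3:**
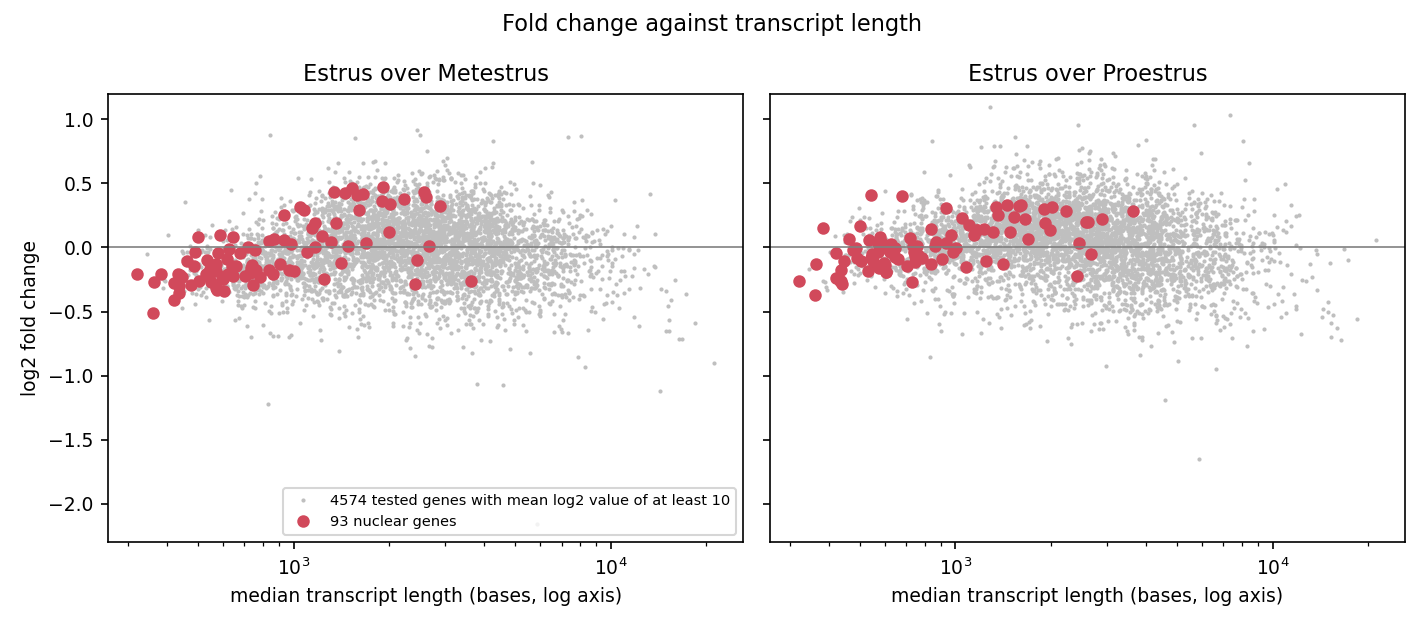
Fold change (log2) against median transcript length in bases (log axis) for 93 nuclear oxidative phosphorylation genes (red) over 4574 abundant genes (grey). In Estrus over Metestrus the red points lie mostly under 0 at the short end, where the 31 shortest have a median of -0.21, and mostly above it among the 31 longest, with a median of 0.19.

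Within both shared batches the difference between short and long genes was lowest in Estrus libraries. In batch 2 the median deviation of the shortest genes minus that of the longest was -0.34, -0.54 and -0.45 in Estrus libraries, -0.17 and -0.10 in Proestrus libraries, and -0.02 and 0.14 in Metestrus libraries. In batch 3 it was 0.19 in the Estrus library, 0.25 in the Proestrus library and 0.41 in the Metestrus library. Over all batches the groups overlapped, since batch 4 Metestrus libraries ran from -0.22 to 0.44. The same difference over all abundant genes, members included, moved with it in batch 2 (-0.30, -0.22 and -0.24 in Estrus libraries, against -0.07 and 0.17 in Metestrus libraries), and in batch 3 it was 0.22 in the Estrus library, against 0.23 in the Metestrus library. Without the members it was -0.29, -0.20 and -0.24 in the batch 2 Estrus libraries, against -0.07 and 0.14 in the batch 2 Metestrus libraries.

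**Figure D4:**
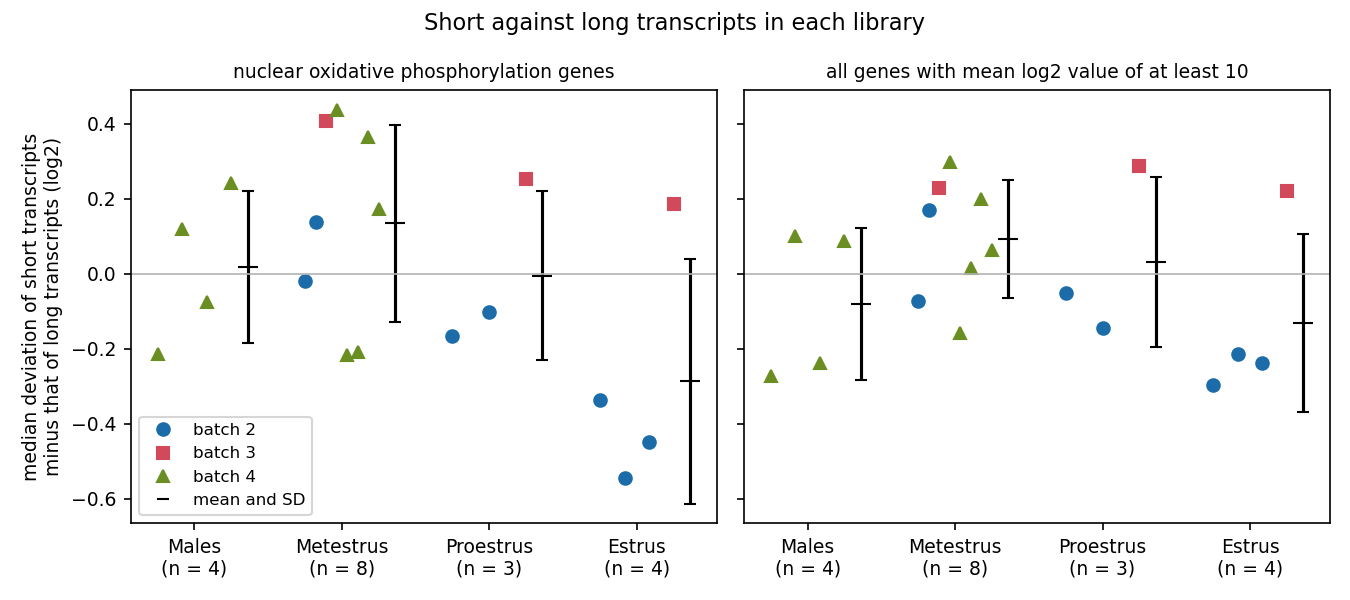
Median deviation of short minus long transcripts (log2) in each library, for nuclear oxidative phosphorylation genes (left) and all abundant genes (right), with batch as symbol and the group mean and SD. Batch 2 Estrus libraries lie lowest at left, from -0.54 to -0.34, and the batch 3 Estrus library is at 0.19.

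The 13 mitochondrial genes varied more between libraries of a group than the nuclear genes, with a median SD of 0.538 log2 units, and they took 0.0197% to 0.0621% of the summed values of a library. Their median deviation was 0.87 in Males 1 and 0.57 in Males 2, but -0.30 in Males 3 and -0.20 in Males 4, and it was 0.54 in Estrus 2 but -1.02 in Estrus 3. Of the 13 genes 13 were above their own mean in Males 2, 12 in Estrus 2 and 11 in Males 1, but 2 in Estrus 3, where mt-Co2 and mt-Nd3 went against the others, and 5 in Males 4. The mitochondrial ribosomal RNA mt-Rnr2, which is no member, was at 11.99, 11.93, 11.43 and 12.03 in the male libraries. Metestrus libraries ran from 10.55 to 11.93, with both ends in batch 4, and overlapped the males. Estrus libraries were at 10.58, 11.70, 10.17 and 10.70, and Proestrus libraries at 9.77 to 11.44. Males share no batch with Estrus or Proestrus, so these levels are not compared.

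Estrus over Metestrus gave a mitochondrial median of -0.28, with 11 of 13 negative, and without single libraries it ran from -0.58 (without Estrus 2) to -0.02 (without Estrus 3). mt-Co1, a catalytic subunit of complex IV, was at 10.44, 11.34, 9.89 and 10.81 in Estrus libraries, and at 10.29 to 11.47 (median 10.94) in Metestrus libraries, a fold change of -0.28 ± 0.36 (SE, limma adjusted p = 0.815). The Estrus range held nearly all of the Metestrus range. mt-Co2, which receives electrons from cytochrome c, had the opposite sign, at 8.72, 10.21, 9.07 and 8.85 in Estrus libraries, and at 7.62 to 9.14 in Metestrus libraries (0.63 ± 0.36, adjusted p = 0.52). mt-Cytb, the complex III subunit, gave -0.25 (adjusted p = 0.827), and of the complex I genes mt-Nd1 gave -0.22, mt-Nd2 -0.35, mt-Nd4 -0.30, mt-Nd5 -0.20 and mt-Nd6 -0.41. mt-Nd6 lies on the other strand from mt-Nd5, and whether reads were counted by strand is not given in the labels. mt-Atp6, which forms the proton channel, gave 0.10.

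In Males over Metestrus the mitochondrial median was 0.23, with 10 of 13 positive, and it was 0.04 without Males 1. mt-Atp8, a short gene that overlaps mt-Atp6 and may share its reads, was at 6.82, 6.13, 5.04 and 6.45 in male libraries, and at 4.04 to 6.04 in Metestrus libraries (0.99 ± 0.50, adjusted p = 0.951). mt-Co3 was at 10.76, 10.65, 9.36 and 1.16 in male libraries, against 9.29 to 11.08 in Metestrus libraries, and the value in Males 4 sets its fold change of -2.29 (-0.01 without that library). In that library mt-Nd3, the neighbour of mt-Co3 on the mitochondrial genome, was at 8.07, its highest value of the 19 libraries.

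mt-Nd3 had the only unadjusted p under 0.05 among the mitochondrial genes, in Proestrus over Metestrus. It was at 0.04, 2.88 and -1.57 in Proestrus libraries, and at 2.51 to 5.81 in Metestrus libraries, and the fitted fold change was negative (limma adjusted p = 0.364). All 3 Proestrus values and 4 of the 8 Metestrus values lie under the floor of 3.32 that the filter used, so the size of this fold change is not given. mt-Nd4l, which overlaps mt-Nd4, was under that floor in 16 of 19 libraries. It was at 7.32 in Estrus 1 and at -0.94 to -0.13 in the other Estrus libraries. The Proestrus over Metestrus median of the 13 genes was -0.18, and that of Estrus over Proestrus -0.00.

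**Figure D5:**
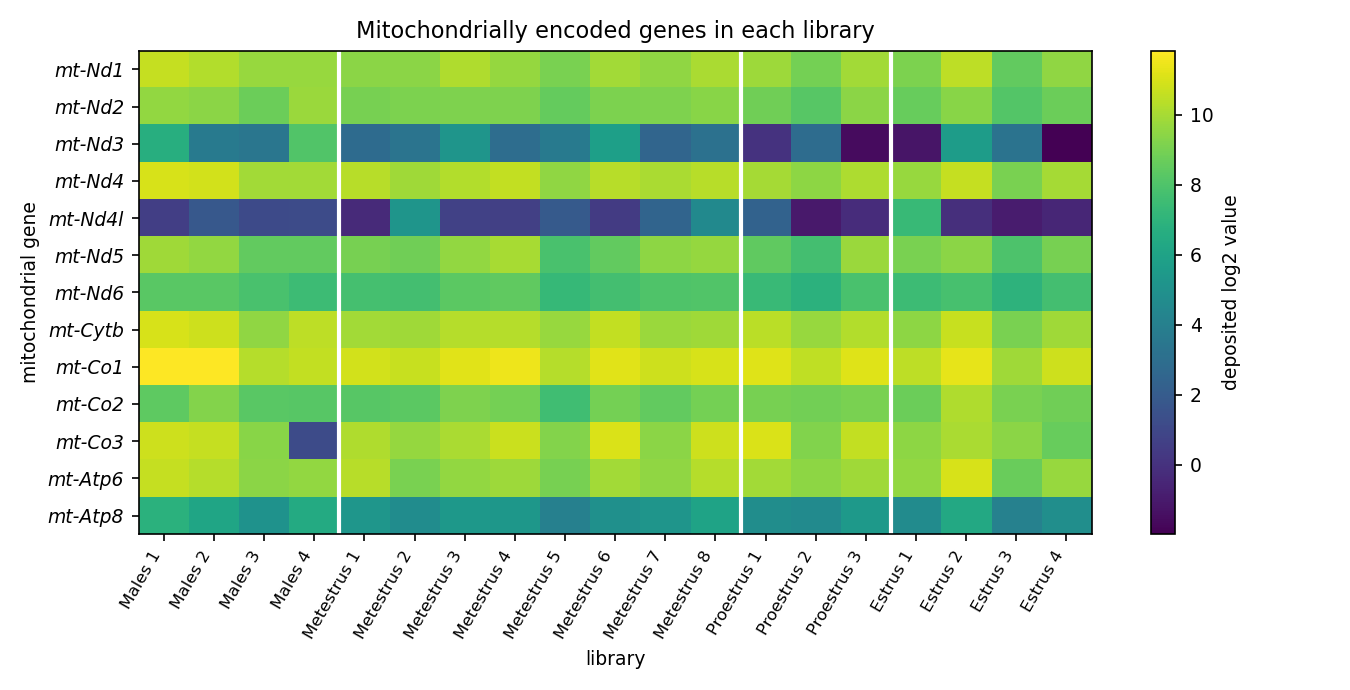
Deposited log2 values of the 13 mitochondrial genes (rows) in 19 libraries (columns, by group). Of the 13 genes 12 are above their own mean in Estrus 2 and 2 in Estrus 3, and single cells stand out at mt-Co3 in Males 4 (1.16) and mt-Nd4l in Estrus 1 (7.32).

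Genes around the respiratory chain, in lists of pathways and partners, gave 0 calls in each list and comparison by limma, where the shares over all genes are those given above (0.0872% with an adjusted and 11.3% with an unadjusted p under 0.05 in Estrus over Metestrus). Of 23 genes of the citric acid cycle and pyruvate dehydrogenase, 21 had a positive fold change in Estrus over Metestrus (median 0.25), 6 with an unadjusted p under 0.05, led by the fumarase gene Fh1 (0.75, adjusted p = 0.165). Of 78 mitochondrial ribosomal protein genes, 31 were positive (median -0.05) and 3 had an unadjusted p under 0.05. Of 20 complex IV assembly genes, 5 were positive (median -0.24) and 3 had an unadjusted p under 0.05. Of 14 genes of mobile electron carriers and entry points 10 were positive (median 0.27, 2 with an unadjusted p under 0.05), and of 10 genes of nucleotide and phosphate carriers and uncoupling proteins 9 (median 0.25, 0 with an unadjusted p under 0.05). Pdk3, a kinase that inhibits pyruvate dehydrogenase, gave 0.99 in Estrus over Proestrus (adjusted p = 0.0718). It is in the list of 23, which thus mixes genes of the pathway with an inhibitor of it. Of 10 regulators of mitochondrial genes, 3 were positive in Proestrus over Metestrus and 4 in Estrus over Proestrus. The smallest p in both was that of Esrrg, an orphan nuclear receptor of the estrogen-related family, with -1.80 ± 0.49 in Proestrus over Metestrus (SE, limma adjusted p = 0.0811) and 1.84 ± 0.46 in Estrus over Proestrus (adjusted p = 0.0518). Both comparisons share the Proestrus libraries, and Esrrg gave 0.04 in Estrus over Metestrus. Ppargc1a, a coactivator of mitochondrial biogenesis, gave -0.58 ± 0.18 in Proestrus over Metestrus (SE, limma adjusted p = 0.128), Esrra, its nuclear receptor partner, -0.03, and Nrf1 and Gabpa 0.04 and 0.15. Tfam, which packages and transcribes mitochondrial DNA, gave 0.46 in Estrus over Proestrus (adjusted p = 0.272), and Lrpprc, which stabilises mitochondrial mRNAs, -0.52 in Males over Metestrus (adjusted p = 0.927).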

How the data were processed

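The authors deposited 1 table of log2 values for 21749 genes in 19 libraries. Per the submitters' processing notes STAR, Salmon, edgeR and GRCm39 were used. How the values were scaled, and how the surrogate-variable step named in the table's title was run, is not stated. Once genes were centred the deposited values had rank 14, which is 4 directions fewer than 19 libraries allow. The 13 residual degrees of freedom of the fit may therefore be too many, and an alternative with 10 counts the missing directions.

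A gene was tested where 3 or more libraries reached 10 on the unlogged scale (20644 genes, 94.9%) with limma 3.58.1 in R 4.3.3, with group and batch as terms, a trended and robust prior, and Benjamini-Hochberg adjustment over all genes. The script was tested on simulated data. A fold change is a difference of deposited log2 values, and depth is unknown, so that no counting interval could be given. No correlation across genes carries a p.

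The members, lists and roles were chosen with earlier results of these data known. Named genes are all mitochondrial genes, a fixed list of subunits and isoforms, and in each comparison the 3 nuclear genes of smallest p and of largest fold change; the others named were chosen after their values were seen, and 1 gene of the fixed list is not reported here. The split by transcript length was added after the fold changes were seen, and 2 length measures were tried in turn: all protein-coding transcripts of GENCODE M21, then its basic set, which is the one reported. Both are given.

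Alternatives were no filter, a stricter filter, no batch term, 2 other scalings, shared batches alone, another prior, each library left out, and a replicate block. Whether the numbers in the batch 4 library names pair males with females is not in the labels. Same-numbered libraries correlated at 0.16, 0.03, -0.26 and -0.13, and other pairs at -0.16 to 0.37. So few libraries cannot decide whether a pairing existed.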

Additional observations from a re-analysis of the deposited data

Results flagged for a closer look

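In 58 named genes and 3 groups each (174 sets of 4 or 8 libraries), 9 libraries stood apart from the rest of their group by the gap to the nearest library (5.17%), and chance alone gives about 1 in 20. mt-Co3 was at 1.16 in Males 4, against 9.36 to 10.8 in the other male libraries. mt-Nd4l was at 7.32 in Estrus 1, against -0.94 to -0.13 in the other Estrus libraries. mt-Co2 was at 9.25 in Males 2 (others 8.27 to 8.41), and mt-Nd2 at 8.58 in Metestrus 5 (others 9.00 to 9.38). Males 1 was highest for Sdhb at 14.2 (others 13.90 to 13.93) and for Uqcrfs1 at 13.7 (others 13.35 to 13.40). Cox4i1 was at 14.9 in Males 3 (others 14.97 to 14.99), Cox6b1 at 13.8 in Estrus 2 (others 14.00 to 14.04) and Sdhd at 12.7 in Metestrus 4 (others 12.95 to 13.12).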

How the results depend on the processing

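No oxidative phosphorylation gene passed an adjusted p of 0.05 in limma under any alternative run, and every median of the nuclear, mitochondrial, shortest and longest genes moved by less than the SD between libraries of a group. Signs of some small medians did change. Without single libraries the nuclear median ran from -0.16 to 0.02 in Proestrus over Metestrus and -0.11 to 0.07 in Estrus over Proestrus. It stayed negative in Estrus over Metestrus (-0.22 to -0.06) and in Males over Metestrus (-0.07 to -0.00). The mitochondrial median changed sign in Estrus over Proestrus (-0.41 to 0.27). It kept its sign in Proestrus over Metestrus (-0.39 to -0.02), Estrus over Metestrus (-0.58 to -0.02) and Males over Metestrus (0.04 to 0.44). In Estrus over Metestrus the median of the shortest genes stayed between -0.30 and -0.12 and that of the longest between 0.12 and 0.35, and with the length measure tried first they were -0.21 and 0.19. The longest genes changed sign in Males over Metestrus (-0.07 to 0.07) and in Proestrus over Metestrus (-0.08 to 0.13).

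Of the 223 named fold changes, 262 of 4166 values under alternatives had the other sign, none of them called, and Ppargc1a in Proestrus over Metestrus passed without the batch term (-0.56, adjusted p = 0.0173). Counts over all genes moved more, from 1 to 1146 in Proestrus over Metestrus (204 as reported), 0 to 899 in Estrus over Metestrus (18), 0 to 430 in Estrus over Proestrus (194) and 0 to 10 in Males over Metestrus (5). With the missing directions counted, 2 nuclear genes had an unadjusted p under 0.05 in Estrus over Metestrus, against 13. With the replicate block in batch 4 the nuclear median of Males over Metestrus was -0.02, the mitochondrial median 0.20, and 0 genes of either kind passed. Whether the numbers pair the libraries is not known.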
